A study of Mus musculus with 6 samples.

Results

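OTX2, the ZIC proteins and a small group of anterior factors were examined in mouse embryonic stem cells (ESCs) and in the epiblast-like cells (EpiLCs) derived from them. The 8 genes, Otx2, Hesx1, Zic1, Zic2, Zic4, Zic5, Pax6 and Six3, were chosen by name, with earlier results of these data known. All 8 were found among the 24736 genes of the deposited table. Strand-specific, poly(A)-selected RNA-seq libraries were made from 3 biological replicates of each of 2 conditions. Both conditions used wild-type cells of 1 line, the XY line HM1 TetON. The ESCs were undifferentiated (0 h) and had been kept with LIF (1000 U/ml) and 10% serum on inactivated embryonic fibroblast feeders. EpiLCs were taken after 48 h in N2/B27 medium that held bFGF at 10 ng/ml and LGK974, a blocker of WNT secretion, at 5 µM. Medium, feeders, substrate and time changed together, so their parts in any difference cannot be told apart. The libraries held 16967741 to 35096210 expected counts each.

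OTX2 is a homeodomain transcription factor that is induced early as naive pluripotent cells move towards the formative state, where it acts with OCT4 at newly opened enhancers, and it is later needed for the head. ZIC proteins bind DNA through zinc fingers, and Zic2 and Zic5 are used in pluripotent cells while Zic1 and Zic4 are known from the dorsal neural tube and cerebellum. Hesx1, Six3 and Pax6 encode homeodomain proteins of the forebrain, pituitary and eye, and of these Hesx1 is also transcribed in cultured pluripotent cells.

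Promoter sequence was taken from RefSeq (GRCm38.p6) as the 250 bases before each annotated start, which gave 11 promoters for 7 of the 8 genes. The start used lies inside the whole span of the gene for Hesx1 (5.9 kb from its 5′ end), Zic4 (3.3 kb) and Six3 (7.2 kb), and the second Pax6 start lies 13.6 kb inside. Zic2 had no entry. Shown here are the promoter of Otx2 start 1, a short stretch before Otx2 start 3 (starts are numbered from the 5′ end), the Zic5 promoter up to its annotated transcript, and the window before the internal Hesx1 start, because Otx2 and Zic5 were higher in EpiLCs and Hesx1 was lower. Capitals mark matches to the motifs given below, and each sequence runs 5′ to 3′ along the gene's own strand.
Otx2, start 1, chr14:48667645-48667894, minus strand: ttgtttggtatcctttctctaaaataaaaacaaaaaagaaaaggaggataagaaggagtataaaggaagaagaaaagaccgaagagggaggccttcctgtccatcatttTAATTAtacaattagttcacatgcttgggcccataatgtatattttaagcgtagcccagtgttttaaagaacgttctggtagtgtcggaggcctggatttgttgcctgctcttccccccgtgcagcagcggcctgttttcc
Otx2, start 3, chr14:48665315-48665343, minus strand: TAATTAagggacgtgtgcccctcGGATTA
Zic5, chr14:122465678-122465908, minus strand: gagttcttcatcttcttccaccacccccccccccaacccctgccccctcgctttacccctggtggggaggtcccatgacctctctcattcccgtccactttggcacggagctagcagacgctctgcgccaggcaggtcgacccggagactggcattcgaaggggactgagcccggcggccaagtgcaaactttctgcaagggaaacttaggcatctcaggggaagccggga
Hesx1, chr14:27000112-27000361, plus strand: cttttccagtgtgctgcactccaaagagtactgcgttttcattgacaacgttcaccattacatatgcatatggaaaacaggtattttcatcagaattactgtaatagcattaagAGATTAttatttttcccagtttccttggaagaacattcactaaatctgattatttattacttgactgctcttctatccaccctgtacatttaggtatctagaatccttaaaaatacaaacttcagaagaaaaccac

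The letters searched, on both strands, were TAATCC and TAATCT (the bicoid type of homeodomain site that OTX2 binds), TAATTA (other homeodomains), CAGCAGG and CCCGCTGG (ZIC), ACAAAG and ACAATG (SOX), ATGCAAAT (POU) and TCAAAG (TCF). TAATCC and TAATCT share their first letters, ACAAAG and TCAAAG their last, and TAATTA reads the same on both strands. The promoter before Otx2 start 3, 2535 bases inside the gene, held 1 TAATCC match on the opposite strand (GGATTA as printed), 211 to 206 bases before the start, and 3 TAATTA matches. All 250 bases of that window are annotated as untranslated exon of other Otx2 transcripts, so only the stretch with 2 neighbouring matches is printed. Otx2 start 1 had 1 TAATTA match, and starts 2 and 4 had none of the motifs. Hesx1 held 1 TAATCT match on the opposite strand (AGATTA as printed), 136 to 131 bases before this internal start, and the first of the 2 Pax6 promoters held another. The second held 1 ACAAAG match, 154 to 149 bases before its start. TAATCC or TAATCT was thus present in 3 of the 11 promoters, against 12.8% of all 32851 promoters of the same length. The Zic1, Zic4, Zic5 and Six3 promoters held none of the 9 motifs, and 51.2% of all promoters held at least 1. TAATTA occurred in 4.84% of all promoters, CAGCAGG in 8.44%, CCCGCTGG in 1.2%, ACAAAG in 16.5%, ACAATG in 10.7%, ATGCAAAT in 1.6% and TCAAAG in 13.8%. By base composition, Hesx1 had 34.0% G and C, above only 3.87% of all promoters, whereas Zic1 had 66.0%, above 84.5% of them. Such matches describe the letters of these windows and were not tested for binding.

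Of the 8 genes, 4 were higher in EpiLCs (Otx2, Zic2, Zic5 and Six3), 1 was lower (Hesx1), 2 were not called (Pax6 and Zic1), and Zic4 fell below the filter on low counts and was not tested. Six3 and Hesx1 were kept by that filter through the condition in which they were higher, so their calls are not independent of it. Calls are at an adjusted p of at most 0.05 from edgeR's quasi-likelihood test with Benjamini-Hochberg adjustment over 14468 tested genes. Among all tested genes 45.4% were called, 22.6% higher and 22.8% lower in EpiLCs. The 5 called genes were also those whose TPM values (transcripts per 1000000, a level corrected for transcript length) did not overlap between the conditions, which was the case for 59.5% of all tested genes. In a bulk library, fewer expressing cells and less RNA per cell cannot be told apart. The p-values set each difference against the spread between these replicate cultures, which is estimated with information from all tested genes.

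**Figure D1:**
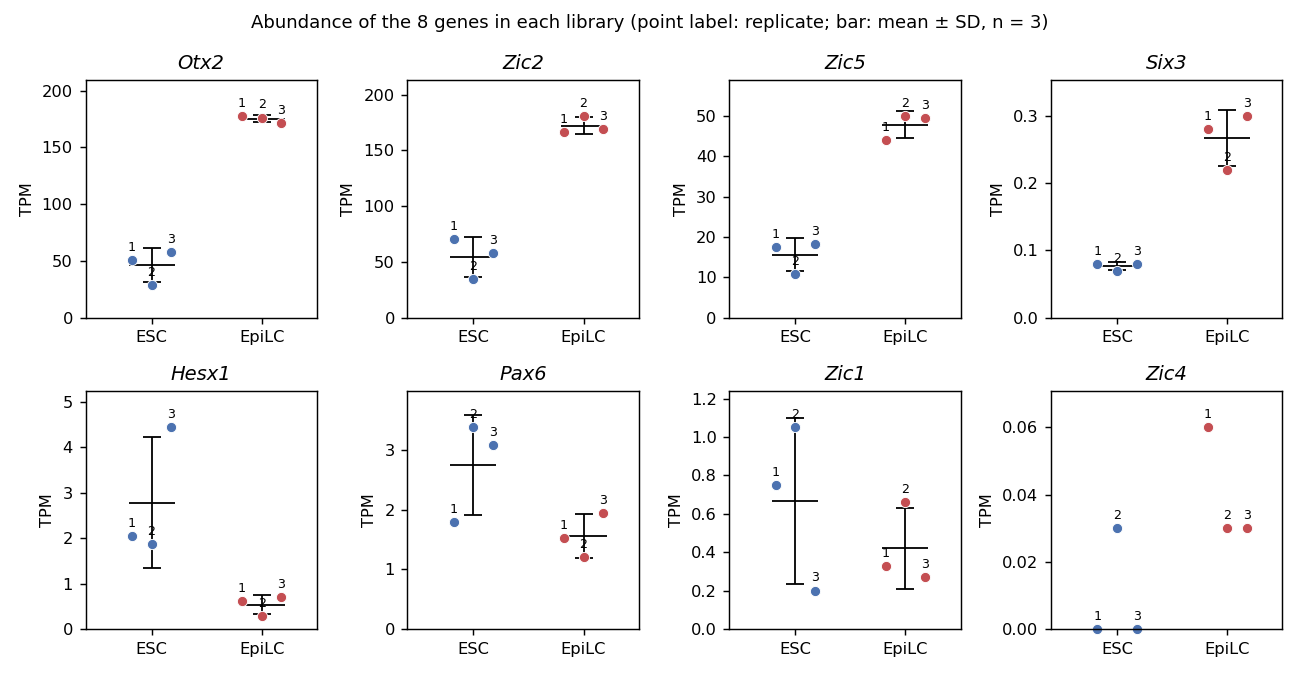
TPM of each of the 8 genes in the 3 ESC (blue) and 3 EpiLC (red) libraries, with the replicate number beside each point and the mean ± SD (n = 3) as a bar, which is left out for the untested Zic4. Each panel has its own axis from 0, and ESC replicate 2 is the lowest ESC point for Otx2, Zic2 and Zic5.

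Otx2 lies at chr14:48656781-48667644 on the minus strand (GRCm38). ESC replicates 1 to 3 had 50.8, 29.1 and 57.8 TPM of Otx2, against 177.5, 176.2 and 171.7 TPM in EpiLC replicates 1 to 3. Each EpiLC library was above each ESC library, and the EpiLC values lay close together while ESC replicate 2 was low. Mean levels (± SD, n = 3) were 45.9 ± 15.0 TPM before and 175.1 ± 3.07 TPM after differentiation. From the counts, edgeR fitted a 3.66-fold rise, a log2 fold change of 1.87 (SE 0.235, edgeR adjusted p = 0.00110). The coefficient of variation was 32.6% among ESC libraries and 1.75% among EpiLC libraries. By TPM, Otx2 was above 80.3% of the genes detected in ESCs and above 94.9% of those detected in EpiLCs. Otx2 was therefore already well detected in serum-grown ESCs, from 511 to 1730 counts a library.

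Of the 4 ZIC genes examined, Zic2 and Zic5 rose and the other two were near the limit of detection. Zic2, at chr14:122475384-122480328 on the plus strand, had 70.3, 34.6 and 57.7 TPM in ESC replicates 1 to 3, against 166.2, 180.8 and 169.3 TPM in the EpiLC libraries. Its EpiLC libraries were all above its ESC libraries. The mean level rose from 54.2 ± 18.1 to 172.1 ± 7.68 TPM (SD, n = 3). The fold fitted to the counts was 3.06, a log2 fold change of 1.61 (SE 0.233, edgeR adjusted p = 0.00196).

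Zic5 starts on the other strand 9.7 kb away, at chr14:122459160-122465658, so that both genes are read away from the interval between them. It had 17.5, 10.9 and 18.4 TPM in ESC replicates 1 to 3, against 44.0, 50.0 and 49.6 TPM in the EpiLC libraries. As with Zic2, the groups did not overlap and ESC replicate 2 was lowest. The mean level rose from 15.6 ± 4.08 to 47.9 ± 3.35 TPM (SD, n = 3), and the fold fitted to the counts was 2.95, a log2 fold change of 1.56 (SE 0.195, edgeR adjusted p = 0.00109). The ratio of Zic2 to Zic5 TPM was 4.02, 3.18 and 3.14 in ESCs and 3.78, 3.61 and 3.41 in EpiLCs. These ratios overlapped (exact permutation test, two-sided p = 0.6, with 0.1 the smallest p that 3 against 3 libraries allow). Pcca, a mitochondrial carboxylase subunit gene that lies 4.0 kb beyond Zic2, was not called (log2 fold change 0.22, edgeR adjusted p = 0.246), nor was Clybl, 56.9 kb beyond Zic5 (-0.34, adjusted p = 0.327).

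Zic1 and Zic4, the other adjacent ZIC pair, remained near the limit of detection. They lie at chr9:91358058-91365768 (minus strand) and chr9:91365631-91389351 (plus strand), are read away from each other and overlap by 138 bases. Zic1 had 0.750, 1.05 and 0.200 TPM in ESC replicates 1 to 3, against 0.330, 0.660 and 0.270 TPM in the EpiLC libraries, or 9 to 35 counts a library. The groups overlapped, and the log2 fold change was -0.67 (SE 0.620, edgeR adjusted p = 0.408). It moved between -1.14 and -0.18 when 1 library was left out, the smallest change being that without ESC replicate 2, where Zic1 was highest. Zic4 had 0, 1 and 0 counts in ESCs and 4, 2 and 2 counts in EpiLCs. A count of 3 corresponds to 0.0855 to 0.177 CPM (counts per 1000000) at these depths, so no difference of Zic4 could be judged and no fold is given.

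Six3, which represses WNT genes in the developing forebrain and is used in the eye field, was called higher at a very low level. It lies at chr17:85613608-85626191 on the plus strand. The level was 0.0800, 0.0700 and 0.0800 TPM in ESC replicates 1 to 3, against 0.280, 0.220 and 0.300 TPM in the EpiLC libraries. Each EpiLC library was above each ESC library, but these levels rest on 2 to 4 counts in ESCs and 13 to 17 counts in EpiLCs. The log2 fold change was 1.72 (SE 0.369, edgeR adjusted p = 0.00927). Because the ESC counts lie around the floor of 3, the size of this rise is uncertain. The filter of the main fit kept Six3 through its EpiLC libraries, where it was higher, so the call is not independent of that filter. With DESeq2 the adjusted p was 0.0716, and Six3 did not pass a filter of at least 10 counts in every library. In EpiLCs its level exceeded that of only 20.7% of the detected genes.

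Six2, the neighbour of Six3 at a distance of 36.5 kb and a factor of kidney and craniofacial progenitors, went down. It had 19.3, 9.28 and 6.82 TPM in ESCs, against 0.960, 0.580 and 0.870 TPM in EpiLCs (log2 fold change -3.91, edgeR adjusted p = 0.000856). Thus the groups of Six2 did not overlap, and the level of Six2 in EpiLCs still exceeded that of Six3. The antisense transcript Six3os1 had 3, 1 and 1 counts in ESCs and 4, 5 and 13 counts in EpiLCs and was not tested. Otx2os1 had at most 4 counts and Pax6os1 had 0 counts in every library, and reads were counted by strand.

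Hesx1, a homeodomain repressor that recruits TLE corepressors, was the 1 gene of the 8 that fell. It lies at chr14:26994419-27002329 on the plus strand. Its level was 2.04, 1.86 and 4.44 TPM in ESC replicates 1 to 3, against 0.620, 0.290 and 0.700 TPM in the EpiLC libraries. All EpiLC libraries were below all ESC libraries, and ESC replicate 3 was highest. The fall fitted to the counts was 5.42-fold, a log2 fold change of -2.44 (SE 0.503, edgeR adjusted p = 0.00798). Counts were 16 to 65 in ESCs and 5 to 11 in EpiLCs, so Hesx1 also did not pass the filter of 10 counts in every library. Its neighbours Appl1, an endosomal adaptor, and Il17rd, a membrane antagonist of FGF signalling, were also called lower, as were 22.8% of all tested genes. Their log2 fold changes were -0.48 (edgeR adjusted p = 0.00529) and -1.0 (adjusted p = 0.00112).

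Pax6, the paired-box factor of the eye and neural progenitors, lay near the threshold. It is at chr2:105668896-105698410 on the plus strand. The level was 1.79, 3.38 and 3.08 TPM in ESC replicates 1 to 3, against 1.53, 1.21 and 1.95 TPM in the EpiLC libraries. The groups overlapped because ESC replicate 1 was below EpiLC replicate 3. The log2 fold change was -0.88 (SE 0.309, edgeR adjusted p = 0.0544). Pax6 passed the threshold with DESeq2 (-0.88, adjusted p = 0.0297) and without ESC replicate 1 (log2 fold change -1.12, edgeR adjusted p = 0.0236), and the number of the 8 genes called lower then rose from 1 to 2. With counts of 69 to 153 in each library, a direction was visible but was not called with all 6 libraries.

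**Figure D2:**
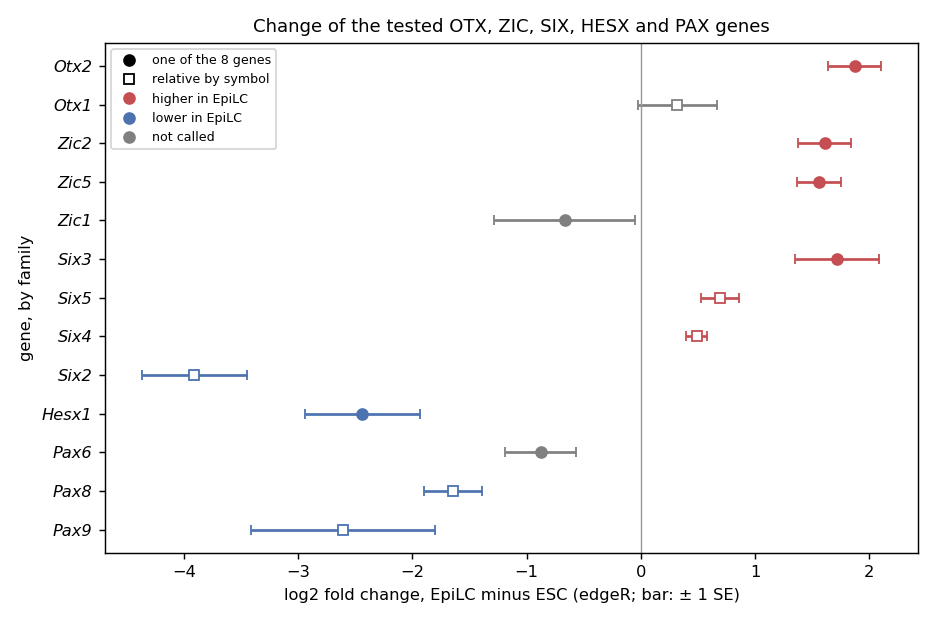
Log2 fold change (EpiLC minus ESC, edgeR) with ± 1 SE for the 7 tested genes of the 8 (filled circles) and their 6 tested relatives by symbol (open squares), grouped by family. Red marks genes called higher, blue lower and grey not called. Otx2, Zic2, Zic5 and Six3 lie between 1.56 and 1.87, and Hesx1 at -2.44 and Six2 at -3.91 lie on the other side of 0. The position of Six3 rests on 2 to 4 counts in each ESC library and is uncertain.

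Of the genes next to the remaining members, Exoc5, an exocyst subunit gene 344.3 kb from Otx2, was called higher (log2 fold change 0.33, edgeR adjusted p = 0.0244), and Tbc1d2b, 1087.3 kb from Zic1, was called lower (-0.53, adjusted p = 0.0107). Tmem260 beside Otx2, Rcn1 and Elp4 beside Pax6 and Camkmt beside Six3 were not called, and Plscr5 beside Zic4 was not tested. Among all tested genes, 45.4% were called in either direction.

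Ordered by level, Otx2 and Zic2 stood at the top in both conditions and were not separated from each other. Their ranges were 29.1 to 57.8 and 34.6 to 70.3 TPM in ESCs, and 171.7 to 177.5 and 166.2 to 180.8 TPM in EpiLCs. Zic5 followed without overlap in both. Hesx1 and Pax6 came next in ESCs with overlapping ranges, whereas in EpiLCs the range of Pax6 lay above that of Hesx1. Zic1 overlapped with Hesx1 in EpiLCs but not in ESCs, and the range of Six3 overlapped with those of Zic1 and Hesx1 in EpiLCs. Zic4 was last in both. The ratio of Otx2 to Zic2 was 0.723, 0.840 and 1.00 in ESCs and 1.07, 0.975 and 1.01 in EpiLCs, which overlapped (exact permutation test, two-sided p = 0.2).

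The low values of Otx2, Zic2 and Zic5 fell in the same ESC library. ESC replicate 2 was also the ESC library with the most fibroblast transcripts, the feeders being fibroblasts. The 15 fibroblast markers summed to 569.8, 2295 and 210.7 TPM in ESC replicates 1 to 3 and to 168.3 to 209.7 TPM in EpiLCs, and none of them was at 0 in all libraries. Of the 14 tested, 7 were called lower, led by Col1a1 and Col1a2 (log2 fold changes -4.74 and -4.70), subunits of type I collagen, and S100a4 (-4.22), and 0 higher (also 0 at an unadjusted p under 0.05, and 0 with DESeq2 or limma). Without EpiLC replicate 1 only 3 were lower, without EpiLC replicate 3 it was 4, and without ESC replicate 3 it was 11. Without ESC replicate 2, 1 was higher. Leaving out ESC replicate 2 left log2 fold changes of 1.63 for Otx2, 1.37 for Zic2 and 1.36 for Zic5, all called (edgeR adjusted p at most 0.000187). The part of the fibroblast transcripts in the low values was not tested.

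**Figure D3:**
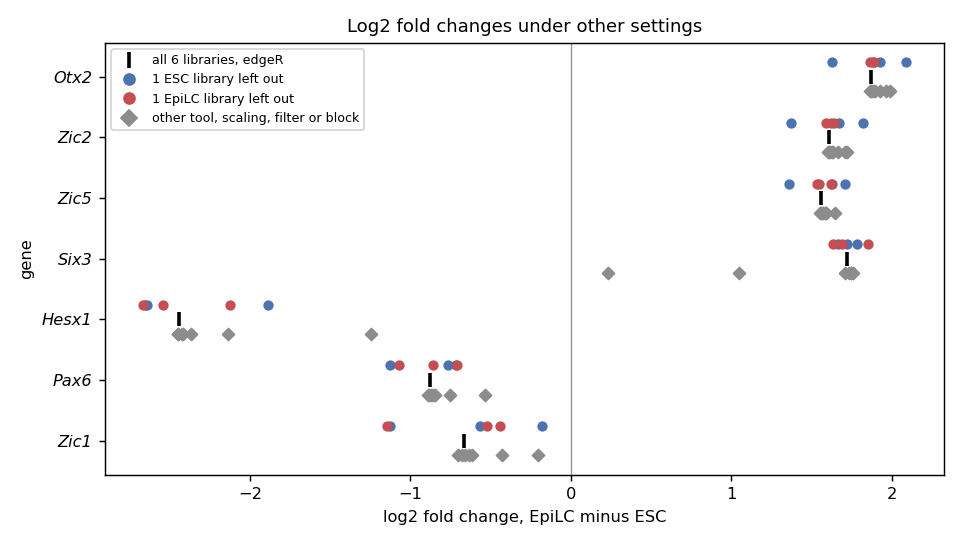
Log2 fold change (EpiLC minus ESC) of the 7 tested genes with all 6 libraries (black), with 1 ESC library (blue) or 1 EpiLC library (red) left out, and under other tools, scalings, filters or the replicate block (grey). Otx2, Zic2, Zic5 and Six3 stay above 0 and Hesx1, Pax6 and Zic1 below 0, and the grey Six3 points nearest to 0 are those on log2(TPM + 1) and log2(TPM + 0.1).

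The calls of Otx2, Zic2, Zic5, Six3 and Hesx1 held in each of the 6 fits that left out a library. For Six3 and Hesx1 this is limited, because the count filter keeps them through the condition in which they are higher. Otx2 ranged from 1.63 to 2.09, Zic2 from 1.37 to 1.82, Zic5 from 1.36 to 1.71, Six3 from 1.63 to 1.85 and Hesx1 from -2.67 to -1.89. On log2(TPM + 1) with limma the change of Six3 was 0.23 and that of Hesx1 -1.25, on a scale that compresses low levels, and both remained called. All expected counts of the 8 genes were whole numbers (within 0.005) in all 6 libraries, which is what reads assigned to 1 gene only give. The effective length of Otx2, Zic2 and Zic5 transcripts, taken from counts over TPM, differed between conditions by -0.128%, -0.0587% and -0.0674%, within the -0.513% to 0.551% spanned by the 5th to 95th percentile of 8266 genes.

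Of the 14 relatives by symbol considered here, 6 were tested. Six4 and Six5, relatives of Six3, were called higher with log2 fold changes of 0.49 and 0.70 (edgeR adjusted p = 0.00626 and 0.0147). Pax8 and Pax9, relatives of Pax6 known from thyroid and tooth, were called lower (-1.65 and -2.61, adjusted p = 0.00239 and 0.0350), as was Six2. Pax9 had 0.290, 1.01 and 0.190 TPM in ESCs and 0.0400 to 0.150 TPM in EpiLCs, so that it was highest in ESC replicate 2, as the fibroblast markers were, and their part in its fall was not tested. Its counts in EpiLC replicates 1 to 3 were 3, 10 and 3, touching the floor of 3, so the size of the fall is uncertain. Otx1, the closest relative of Otx2, had 0.650, 0.360 and 0.450 TPM in ESCs, against 0.710, 0.740 and 0.440 TPM in EpiLCs. Its groups overlapped, and it was not called (0.32, SE 0.344, adjusted p = 0.476). Otx2 was therefore the abundant OTX transcript in all 6 libraries.

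The setting of these changes was described with lists of related genes. The lists were chosen with earlier results of these data known, so their counts are a description and no independent support. Formative epiblast genes, the group to which Otx2 belongs by function, were called higher in 11 of 13 cases and lower in 2 (Etv5 and Tcf15, log2 fold changes -0.32 and -0.87), with a median log2 fold change of 1.13 against -0.002 for all tested genes. When 1 library was left out, 9 to 11 were higher, and 1 was lower without EpiLC replicate 1, 2 or 3. Pou3f1, the POU factor that is induced with Otx2, changed by 4.07, Sall2, a zinc finger factor, by 3.61 and Sox3, a SOXB1 factor, by 2.93. The log2 fold changes of Otx2, Zic2 and Zic5 each lay above those of 9 of the 13 formative genes and below those of the other 4, with no test of these differences. Of the naive pluripotency genes, 12 of 13 were lower and 0 higher (edgeR, and 0 at an unadjusted p under 0.05 and with DESeq2 or limma), among them Tbx3 (-6.59), Klf4 (-6.53) and Prdm14, a germline and naive-state regulator. Prdm14 had only 2, 2 and 7 counts in EpiLCs, so the size of its fall is not given.

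Tested genes of the anterior neural plate, where Six3, Pax6, Hesx1 and Otx2 act later, were not called higher. Of 21 listed genes of this region 10 were tested, and the rest fell below the filter on low counts, so their direction was not judged. With edgeR 3 were lower and 0 higher (0 at an unadjusted p under 0.05, 0 with DESeq2, 1 or 0 with limma on log2(TPM + 1) or log2(TPM + 0.1)). The 3 lower genes were Vax1, a ventral forebrain and optic factor, and En1 and En2, which mark the midbrain and hindbrain boundary (-3.21 and -1.16). Vax1 had 92, 11 and 32 counts in ESCs and 3, 1 and 1 counts in EpiLCs, at or under the floor of 3, so the size of its fall is not given. En1 and En2 were highest in ESC replicate 2, at 3.68 and 4.10 TPM against 1.90 to 2.81 TPM in the other ESC libraries, and the part of the fibroblast transcripts of that library was not tested. The whole list summed to 12.3 to 22.8 TPM in ESCs and 7.69 to 13.0 TPM in EpiLCs, which is less than Zic5 alone in EpiLCs. When 1 library was left out, 0 to 2 were called higher, with 1 without ESC replicate 1, ESC replicate 2 or EpiLC replicate 1, and 2 without ESC replicate 3. Among 8 tested neural progenitor genes, Tubb3, a neuronal tubulin, was higher (0.83), and Ncam1 and Cdh2, both adhesion molecules, were lower (-2.63 and -1.32). Ncam1 had 12.4, 31.3 and 11.1 TPM in ESC replicates 1 to 3 and 2.56 to 3.41 TPM in EpiLCs, and was thus highest in ESC replicate 2, the library with the most fibroblast transcripts, whose part in the fall was not tested. The count of higher progenitor genes rose from 1 to 2 without ESC replicate 1, EpiLC replicate 2 or EpiLC replicate 3, to 3 without ESC replicate 2 or with DESeq2, and to 4 with limma.

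In the neural plate border list, where Zic1 and Zic5 are used in the embryo, 6 of 7 tested genes were lower and 0 higher (edgeR, also 0 at an unadjusted p under 0.05 and with DESeq2 or limma). Msx2 and Msx1, homeobox targets of BMP signalling, led them (-4.57 and -3.15), followed by Sox9 (-2.43). Head organiser and anterior visceral endoderm genes, of which several depend on OTX2 in the embryo, were lower in 6 of 11 cases and higher in 0 (edgeR, also 0 at an unadjusted p under 0.05 and with DESeq2 or limma). Lhx1, Gsc and Dkk1 had the largest fitted falls, with log2 fold changes of -5.65, -5.12 and -3.85. In EpiLC replicates 1 to 3, Gsc had 6, 3 and 13 counts and Dkk1 had 4, 3 and 19 counts. Both touched the floor of 3 counts, so the sizes of their falls are uncertain. The summed level of this list was 128.0 to 165.2 TPM in ESCs and 21.3, 18.2 and 38.8 TPM in EpiLC replicates 1 to 3, so that EpiLC replicate 3 was the highest of the EpiLC libraries here as well. Lhx1, for example, had 0.510, 0.160 and 2.03 TPM in the EpiLC libraries and 24.3 to 68.7 TPM in ESCs. Without EpiLC replicate 3, 7 of the list were lower.

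Posterior and streak genes, which mark the opposite end of the axis from Otx2, were lower in 8 of 14 tested cases and higher in 0 (edgeR, also 0 at an unadjusted p under 0.05 and with DESeq2 or limma), with Mixl1 (-5.17), Cdx1 and Fgf8 (-5.07) among them. Cdx1 had 43 to 84 counts in ESCs and 1, 0 and 7 counts in EpiLCs, so the size of its fall is not given. Their summed level was 439.8, 205.9 and 143.4 TPM in ESC replicates 1 to 3, highest in replicate 1, as was that of the neural plate border list (79.1, 53.1 and 34.4 TPM) and of the endoderm list (69.1, 44.5 and 35.5 TPM). In the EpiLCs the posterior and streak genes summed to 13.2 and 9.50 TPM in replicates 1 and 2, and to 79.1 TPM in replicate 3. The count of lower genes was 4 without EpiLC replicate 1 and 12 without EpiLC replicate 3. Otx2, Zic2 and Zic5 were not out of line in EpiLC replicate 3, where they were at 171.7, 169.3 and 49.6 TPM. Primitive and visceral endoderm genes were lower in 5 of 8 tested cases, led by Gata6, Pdgfra and Gata4 (-4.63, -3.91 and -3.20), and Amn, a subunit of an endocytic receptor, was higher (1.43). Amn was not called with DESeq2, nor without EpiLC replicate 1, 2 or 3.

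Of 14 tested cofactors and relatives in function, 9 were lower and 3 higher. Gli2 and Gli1, zinc finger factors related to the ZIC proteins, fell by 3.29 and 2.05 on the log2 scale, and Aes, a short TLE-related protein, by 1.72. Gli3, Mbd3 and the corepressor gene Tle4 were higher by 0.57, 0.38 and 0.30. The count of higher cofactors was 0 without ESC replicate 1 or EpiLC replicate 1, and 1 without EpiLC replicate 2 or EpiLC replicate 3.

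**Figure D4:**
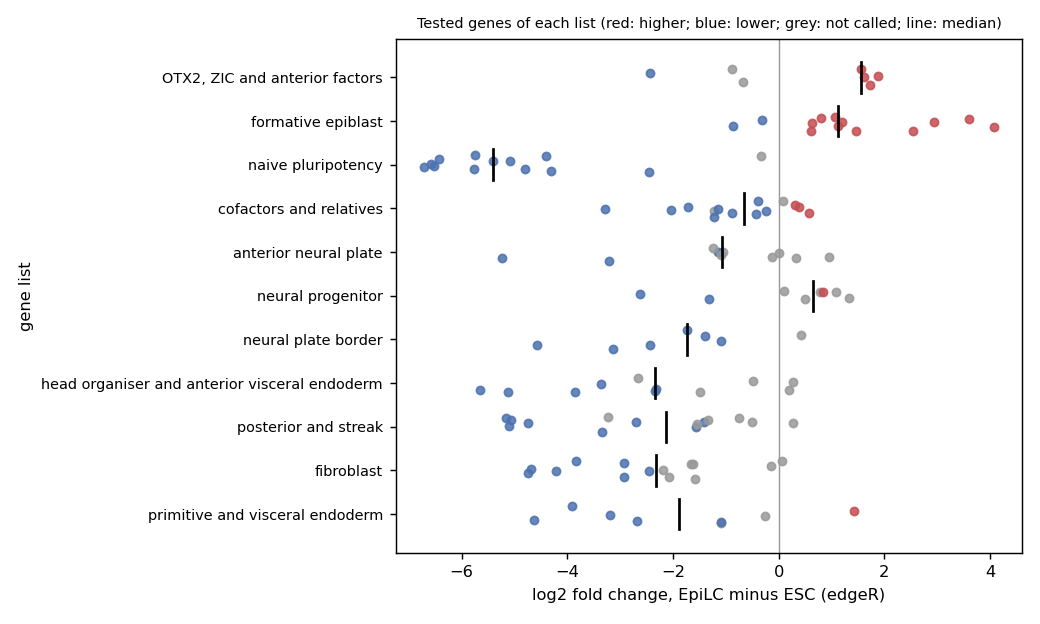
Log2 fold change (EpiLC minus ESC, edgeR) of each tested gene in 11 groups, the examined genes on top and the 10 lists beneath, with red for genes called higher, blue for lower, grey for not called and a line at the median. Points are spread vertically within a group for legibility. The medians of the examined genes, the formative epiblast list and the neural progenitor list lie above 0, and that of the naive list lies furthest below.

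The genes whose pattern was most like that of each member were found by Pearson correlation of log2 CPM over the 6 libraries, among the 10613 other tested genes that averaged 5 CPM or more. The 6 points share their conditions, so that many genes reach a high value. For Otx2, 847 genes reached r of at least 0.95, and the closest were Scd1 (0.9998), Rimklb (0.9991) and Kcnj3 (0.9986). Scd1, a fatty acid desaturase, had 56.4, 31.5 and 61.7 TPM in ESCs and 187.6, 185.1 and 180.6 TPM in EpiLCs, which follows Otx2 also in the low value of ESC replicate 2. For Zic2 there were 692 such genes, led by Acot1, Ppp1r26 and Pcbp2, and for Zic5 826, led by Ube2k, Sept3 and Satb1. For Six3 there were 881, led by D10Wsu102e, Ctnnbip1 and Rfwd3. The numbers for the others were 354 for Hesx1 (Med31, Nmnat2 and Wtap), 23 for Pax6 (Anxa6, Cs and Sfrp1) and 18 for Zic1 (Man2a2, Tmod3 and Cebpb). The order of these numbers depended on the measure. By Spearman correlation they were 187 for Hesx1, 166 for Six3, 106 for Otx2, 106 for Zic5, 56 for Zic2, 45 for Zic1 and 13 for Pax6.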

How the data were processed

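Libraries (KAPA mRNA HyperPrep, 76 nt single-end, strand-specific) were processed by the authors with cutadapt 1.16, STAR 2.5.2a and RSEM 1.3.0 on mm10, per the submitters' processing notes, which also name DESeq2 1.16.1. The authors deposited 1 table of 24736 genes with RSEM expected counts, which are not normalised, and TPM values, which correct for length and sum to 1000000 in each library. Between 4.27% and 4.65% of expected counts were not whole, and counts were rounded here.

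Counts were tested with edgeR 4.0.16 (quasi-likelihood F test, TMM factors 0.979 to 1.02, filterByExpr, Benjamini-Hochberg over all tested genes, R 4.3.3). The SE is the absolute log2 fold change over the square root of F. The code was tested on simulated counts. Alternatives were DESeq2 1.42.0, other size factors, filters, a replicate block, limma 3.58.1 on log2(TPM + 1) and log2(TPM + 0.1), and leaving out each library. Ratios were compared by exact permutation. Gene positions are RefSeq's on GRCm38, and untranslated exons are from GENCODE vM21.

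The members and lists were chosen with earlier results of these data known. Named genes were all 8 members, the tested ones of 14 relatives by symbol (others are not reported here), up to 3 called genes with the largest changes per list and direction, and the 3 genes most correlated with each member. The nearest protein-coding gene of the table on each side of each member and the antisense transcripts of the members were added after that rule. The study's methods separate cells from feeders by adhesion before differentiation. Whether the undifferentiated samples for RNA were treated so is not given in the sources used here. Depth was 16967741 to 35096210 counts, and a count of 3 was taken as the floor.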

Additional observations from a re-analysis of the deposited data

How the results depend on the processing

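Directions of the 7 tested members were the same under each alternative in which they were tested (Hesx1, Zic1 and Six3 did not pass the filter of 10 counts), and of 298 recomputed values 259 stayed on their side of the threshold or within 1.5 times, 36 moved by more, 2 gained a call and 1 lost it. Of 20 list counts, 8 moved in a fit that left out a library. Genes called lower among the 8 were 2 with DESeq2 (Pax6 added, -0.88) and 0 with at least 10 counts in every library, a filter that Hesx1 did not pass, and ranged from 1 to 2 when 1 library was left out. Six3 lost its call with DESeq2 (log2 fold change 1.76, adjusted p = 0.0716), and the cause was not tested. Pax6 ranged from -1.12 to -0.71 when 1 library was left out. Over all genes, 2144 to 3572 were called higher and 2100 to 3609 lower when 1 library was left out, the lowest without EpiLC replicate 1. With the replicate block, Otx2, Zic2, Zic5, Six3 and Hesx1 kept their calls (log2 fold changes 1.93, 1.67, 1.59, 1.75 and -2.37), and neural progenitor genes called higher rose from 1 to 3. Replicate numbers were not taken as pairs, since the study's methods name no replicate block. Deviations of same-numbered libraries correlated at 0.00668, 0.186 and 0.170. Replicates 2 and 3 correlated best with their own number, replicate 1 did not. Expected counts of 2 to 17 limit Six3, and Zic4, with at most 4 counts a library, was left out by the filter on low counts.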
